A study of Mus musculus with 29 samples.

Results

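Collagen chains other than the basement membrane pair Col4a1 and Col4a2 were followed through mouse stem cell and endoderm cultures. The members are all genes whose symbol is Col, a number, the letter a and a number, without that pair. In the gene annotation 42 symbols matched, and 41 of them had a named probe, out of 20956 symbols with a probe in the whole series. No probe was named Col12a1 by the match used here, and that gene was not analysed here. Of the 41 members, 31 passed the filter for testing (at least 1 group with each of its arrays well above background), as did 16333 genes in all, and the other 10 were not tested.

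RNA of male mouse lines was measured on 29 one-colour (Cy3) Agilent arrays in 9 groups. ESC were embryonic stem cells of the HRHnG double reporter line in 2i/LIF (3 arrays). Diff were cells of that line treated for 7 to 8 days with LIF, Activin and CHIRON, a step towards primitive endoderm (3 arrays). Mid and Late were the endoderm cultures, called nEnd, that were passaged from Diff cells to passage 7 to 10 and to passage 14 to 15 (3 arrays each), each replicate from its own set of differentiations. XEN were cells of the extraembryonic endoderm line Xen in standard XEN medium (3 arrays). ADE were epiblast stem cells taken towards anterior definitive endoderm for 4 days (4 arrays), and EpiSC were a stable epiblast stem cell culture made from ESC (3 arrays), both from a line spelled HRHNG. NACL (4 arrays) and 2iL (3 arrays) were ESC of 3 lines (E14, E14-NanogGFP and HVMC), held for at least 3 passages in N2B27 with Activin, Chiron and LIF, or in 2i with LIF. The first 5 groups and the last 4 were separate sets of arrays, so differences are given only within a set. Ranges of group means over all 9 groups span both sets. XEN differ from nEnd, and 2iL from EpiSC, in cell line as well as in state, and line and state cannot be told apart there. Outside the nEnd cultures the labels do not say that replicates came from separate cultures, so p-values measure only the spread between these samples.

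A collagen molecule is a helix wound from several chains, and each chain has its own gene. Fibrillar collagens such as types I, II, III, V and XI pack into banded fibrils. Network collagens (types IV and VIII) join into sheets, type VI forms beaded filaments, and fibril-associated collagens sit on the surface of fibrils. Type VII anchors epithelial basement membranes to the tissue below, the multiplexins XV and XVIII are basement membrane proteoglycans, and the transmembrane collagens stay at the cell surface. In the early mouse embryo, parietal endoderm lays down Reichert's membrane, a thick basement membrane made largely of laminin and of the Col4a1 and Col4a2 chains.

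The share of probes well above background ran from 49.2% to 79.7% of an array, highest on NACL 4, and arrays of a group correlated at 0.939 to 0.984. The closest arrays of a group were EpiSC 1 and EpiSC 2, with a median absolute log2 difference of 0.173 over probes well above background on both, and the most distant were NACL 1 and NACL 4, at 0.566. Checked against markers of the labelled cell types, all 10 primitive endoderm markers were well above background on every Diff, Mid, Late and XEN array, against 3 to 5 of them on ESC arrays. All 9 anterior definitive endoderm markers were above background on ADE and on EpiSC arrays alike, with a summed level of 761 to 982 in ADE and of 58.2 to 142 in EpiSC, in multiples of the array's 75th percentile. The 10 primitive endoderm markers were all above background on every ADE array too, with a summed level of 109 to 168. All 10 naive stem cell markers were still above background on every Diff array. Their summed level was 95.9 to 200 in Diff, against 411 to 437 in ESC. Col4a1 and Col4a2, which the rule sets apart, were at 8.48, 7.46 and 7.51 and 8.08, 7.03 and 7.08 on the Diff arrays, against -5.65, -5.11 and -4.46 and -3.41, -3.53 and -4.28 on the ESC arrays.

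Here and below a level is the log2 of a probe's signal minus the log2 of its array's 75th percentile, so that 0 is a signal at that percentile. A difference is between group means of levels, with its standard error (SE) from limma, and a chain is called when its adjusted p is under 0.05. Levels of different probes are not set against each other. Where a chain was not well above background on any array of a group, its difference has only a bound and is given as "at least N-fold". In such cultures fewer cells of a type and less RNA per cell cannot be told apart.

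In Diff against ESC, 5 of the 31 tested chains rose and 2 fell, where 42.4% of all tested genes were called, 23.5% higher and 18.9% lower. Those that rose were Col27a1, Col11a1, Col6a5, Col5a3 and Col16a1, and those that fell were Col5a1 and Col7a1. The median difference was 0.12 over the members and -0.04 over all genes. In Mid against Diff, 5 rose and 5 fell, against 12.3% of all genes that rose and 16.8% that fell (29.1% together). Col6a1, Col6a5, Col8a2, Col20a1 and Col27a1 rose, and Col26a1, Col18a1, Col5a3, Col11a1 and Col9a2 fell. In Late against Mid, Col2a1 fell and no chain rose, against 3.78% of all genes that rose and 3.07% that fell (6.85% together). The nEnd cultures, as the mean of Mid and Late, were higher than XEN in 7 chains (Col6a5, Col5a1, Col20a1, Col8a2, Col2a1, Col22a1 and Col7a1) and lower in 0. In that comparison 41.1% of all genes were called, 16.6% on the higher side and 24.5% on the lower.

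ADE were higher than EpiSC in 8 chains and lower in 4, against 16.9% and 20.7% of all genes (37.6% together). The higher ones were Col9a3, Col17a1, Col23a1, Col20a1, Col11a1, Col7a1, Col11a2 and Col2a1, and the lower ones Col1a1, Col6a1, Col18a1 and Col4a5. EpiSC were higher than 2iL in 13 chains and lower in 3, against 21.5% and 20.1% of all genes (41.6% together). The median difference there was 0.73 over the members, against -0.02 over all genes. NACL differed from 2iL in 1 chain, Col6a5, against 4.12% of all genes that were higher and 4.13% that were lower (8.25% together). In all, 23 of the 31 tested chains were called in at least 1 of these 7 comparisons, and 8 were called in none, where 82.6% of all tested genes were called in at least 1.

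**Figure D1:**
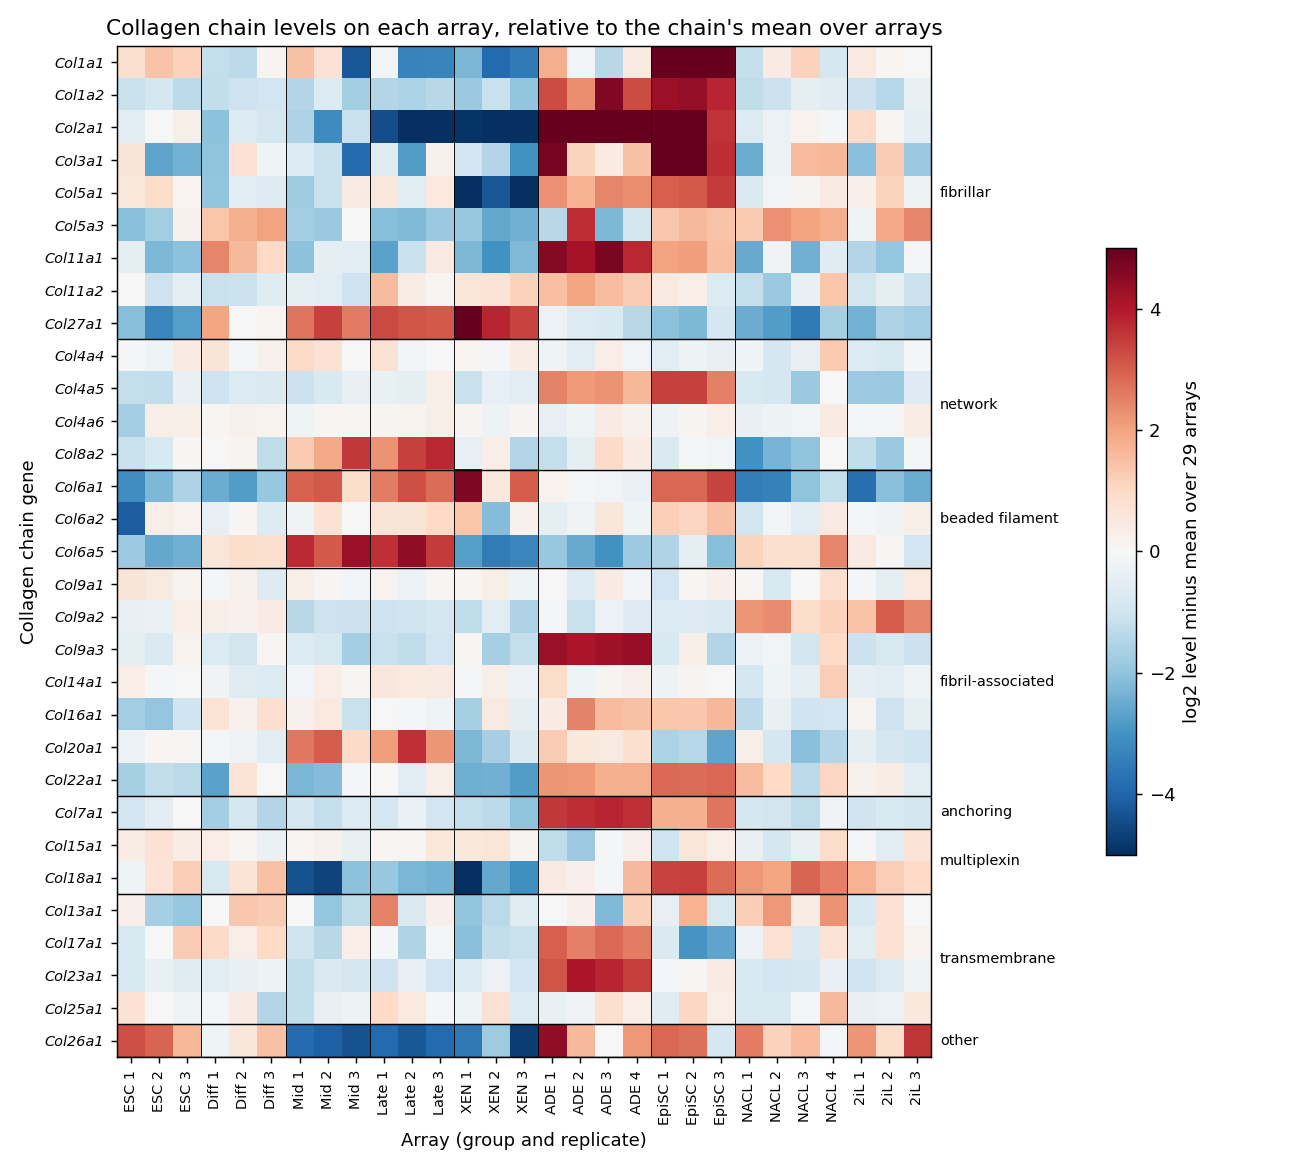
Each row is 1 of the 31 tested collagen chains, grouped by structural class, and each column 1 of the 29 arrays. Colour is the level minus the chain's mean over the 29 arrays (log2, red higher); the first 5 groups and the last 4 are separate array sets. Within the last 4 groups, the fibrillar chains Col2a1, Col11a1 and Col11a2 have their highest group mean in ADE and Col1a1, Col1a2, Col3a1 and Col5a1 in EpiSC. Within the first 5 groups, Col6a5, Col8a2 and Col20a1 have theirs in Late.

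Among the fibrillar chains, 6 of the 9 tested were higher in EpiSC than in 2iL and 0 lower, against 21.5% and 20.1% of all genes. Col1a1 and Col1a2, which together make type I collagen, and Col3a1, the chain of type III, had the largest differences of the class. Col1a1 was at 2.60, 2.28 and 1.96 in EpiSC, against -2.83, -3.19 and -3.24 in 2iL, a difference of 5.37 ± 1.06 (adjusted p = 0.00026). Col1a2 was at 3.75, 3.86 and 3.27 in EpiSC and at -1.59, -1.95 and -0.89 in 2iL, a difference of 5.10 ± 0.40 (adjusted p = 6.4e-10). Both were above all 2iL arrays on every EpiSC array. Col3a1 was at 2.10, 2.06 and 0.28 in EpiSC and at -5.51, -2.15 and -5.26 in 2iL, 5.78 ± 1.28 higher (adjusted p = 0.0008). For Col3a1, 1 of 3 2iL arrays was above background, and none reached the lowest EpiSC array. Col2a1, the chain of cartilage type II collagen, was at 4.11, 4.28 and 2.14 in EpiSC, against -0.49, -1.38 and -1.95 in 2iL (4.78 ± 0.53, adjusted p = 1.3e-07). Col11a1 (3.02 ± 0.71) and Col5a1 (2.81 ± 0.51), whose products are found inside the fibrils of types II and I, were also higher in EpiSC. On slide 5 alone and on slide 6 alone, Col1a1 differed by 5.61 and 5.36, Col3a1 by 5.93 and 6.42, and Col11a1 by 3.70 and 1.88, where its call was lost on slide 6 (adjusted p = 0.24).

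The bases before the start of Col1a2 and Col3a1 are shown because both genes were higher in EpiSC. The windows are RefSeq's, build GRCm38.p6, 250 bases each on the plus strand, at chr6:4505368-4505617 and chr1:45311288-45311537. Capitals mark the motifs searched on both strands, namely TATAAA as a TATA box, CCAAT as a CCAAT box, GGGCGG as a GC box and AGATAA as a form of the GATA factor motif, of which no 2 overlap here.
Col1a2: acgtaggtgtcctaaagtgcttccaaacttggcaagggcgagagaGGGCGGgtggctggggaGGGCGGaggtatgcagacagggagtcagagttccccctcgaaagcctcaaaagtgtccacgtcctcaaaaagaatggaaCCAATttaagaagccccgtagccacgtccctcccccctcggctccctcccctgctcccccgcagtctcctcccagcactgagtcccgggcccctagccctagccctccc
Col3a1: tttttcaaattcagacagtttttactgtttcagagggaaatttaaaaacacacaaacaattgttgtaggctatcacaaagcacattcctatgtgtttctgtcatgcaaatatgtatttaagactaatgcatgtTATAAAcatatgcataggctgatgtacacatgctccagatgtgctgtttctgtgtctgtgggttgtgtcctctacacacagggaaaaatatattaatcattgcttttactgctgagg
Col1a2 holds the CCAAT box once and the GC box in 2 places. Col3a1 holds the letters TATAAA once, at 117 to 112 bases before the start. Of all 32851 windows of this length in the table, 33.8% hold the CCAAT box, 32.7% the GC box, 12.4% the TATA box and 9.99% the GATA motif. The table matched 33 members with 36 windows, of which 11 hold the CCAAT box, 21 the GC box, 5 the TATA box and 2 the GATA motif. A match describes the letters and is no evidence of binding.

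Fibroblasts and mesenchyme make much type I and III collagen, and their markers moved with these chains. Of the 14 fibroblast and mesenchyme markers, 10 were tested, of which 7 were higher in EpiSC than in 2iL and 0 lower, with a median difference of 4.10. Of all genes, 21.5% were higher there and 20.1% lower. Postn, Prrx1 and Twist2 passed the filter for testing only through EpiSC, where they were high. The count and the median are not independent of that choice. Between 7 and 13 of the 14 were well above background on ADE arrays, 10 to 13 on EpiSC arrays and 5 to 7 on 2iL arrays. Their summed level ranged over 10.5 to 36.5 in ADE, 107 to 146 in EpiSC and 2.53 to 3.82 in 2iL, in multiples of the array's 75th percentile. Postn, Twist2, Dcn, Fap, Meox1 and Meox2 were not well above background on any 2iL array, and Meox2 was not on any EpiSC array either. The part of such cells in the collagen differences was not tested.

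In ADE against EpiSC, 3 of the 9 fibrillar chains were higher and 1 was lower, a share near the 37.6% of all genes called. Col1a1 was at -1.44, -3.39, -4.65 and -2.81 in ADE, against 2.60, 2.28 and 1.96 in EpiSC, -5.35 ± 0.99 (adjusted p = 0.00015). No ADE array reached the EpiSC range, while Col1a1's partner chain Col1a2, at 2.74, 1.81, 4.11 and 2.72 in ADE and 3.75, 3.86 and 3.27 in EpiSC, overlapped between the groups and was not called (adjusted p = 0.11). Without ADE 3 Col1a2 was called lower in ADE (-1.20, adjusted p = 0.0048), and on slide 5 alone too (-1.47, adjusted p = 0.032). Col11a1 was at 0.37, -0.06, 0.51 and -0.43 in ADE and at -2.21, -2.11 and -2.72 in EpiSC, 2.45 ± 0.66 higher (adjusted p = 0.0052), with no overlap. Col11a2 (1.54 ± 0.50) and Col2a1 (1.45 ± 0.49), the other chains of types XI and II, were also called higher in ADE. Both calls were lost without EpiSC 3, where the differences were 1.17 for Col11a2 (adjusted p = 0.12) and 0.76 for Col2a1 (adjusted p = 0.25). The Col2a1 call was also lost without ADE 1 (adjusted p = 0.050). Col2a1 was at 5.14, 5.02, 4.55 and 5.13 in ADE and 4.11, 4.28 and 2.14 in EpiSC, so that EpiSC 3 was the low array. Array ADE 1 stood apart in some mesenchyme genes, with Twist2 at -0.24 and Meox1 at 0.59. The other ADE arrays were at -5.89 to -4.31 for Twist2 and -7.04 to -4.07 for Meox1. On ADE 1, 13 of the 14 fibroblast and mesenchyme markers were above background, against 7, 7 and 9 on ADE 2, 3 and 4. Their summed level was not highest there, at 26.33 on ADE 1, 10.52 on ADE 2, 36.25 on ADE 3 and 36.54 on ADE 4. The Col3a1 level of ADE 1, 1.33, lay within the EpiSC range. Col3a1 was not called between ADE and EpiSC (-2.95 ± 1.2, adjusted p = 0.056). Without ADE 1, Col1a1 differed by -5.90 and Col3a1 by -3.89 (adjusted p = 0.013). Without EpiSC 3, Col3a1 was also called lower (adjusted p = 0.0495). Of the 10 tested fibroblast markers, 7 were lower in ADE than in EpiSC and 0 higher, with a median difference of -1.97, and their part was not tested. Of all genes, 20.7% were lower there and 16.9% higher. Postn, Prrx1 and Twist2 were among the tested markers only through EpiSC, where they were high.

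**Figure D2:**
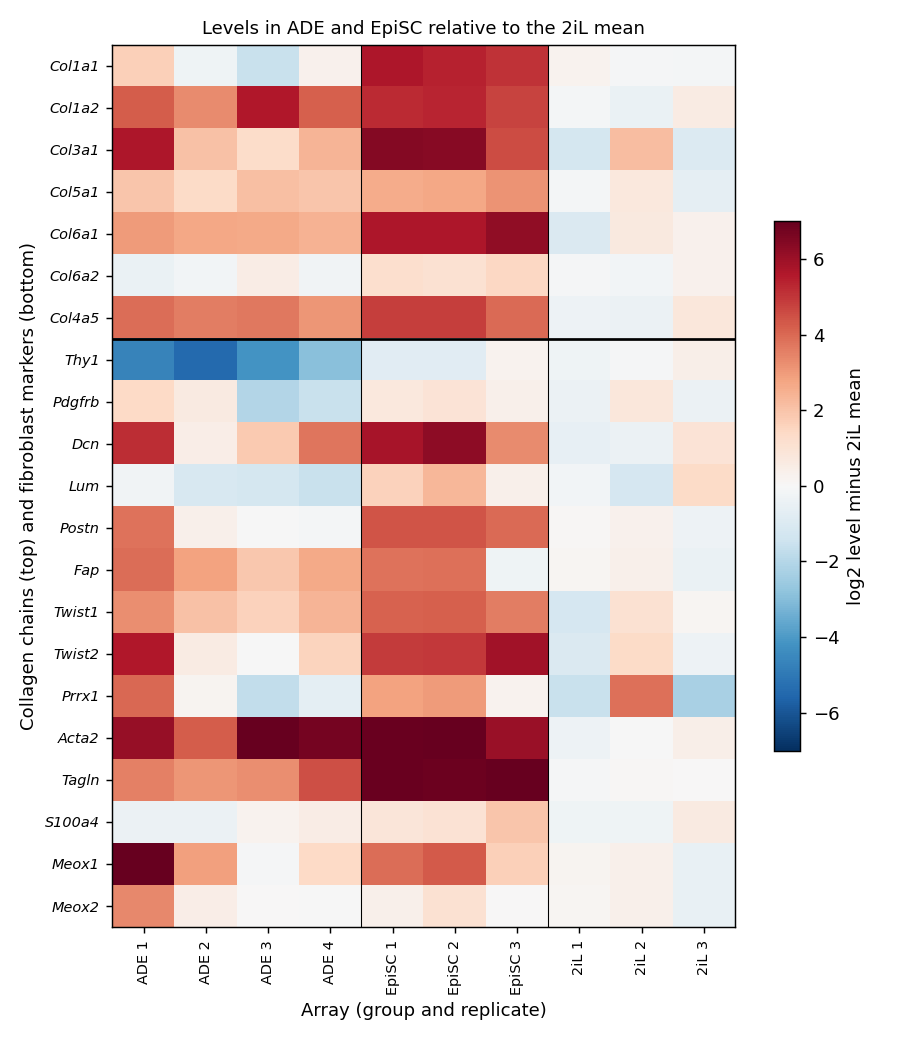
Rows are 7 collagen chains (above the line) and the 14 fibroblast and mesenchyme markers (below it), and columns are the ADE, EpiSC and 2iL arrays. Colour is the level minus the mean of the 2iL arrays (log2). Most chains and many markers are red on the EpiSC arrays, and ADE 1 is redder than the other ADE arrays in Col3a1, Postn, Twist2, Prrx1, Meox1 and Meox2.

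In Diff against ESC, the fibrillar chains that rose were Col27a1, Col11a1 and Col5a3. Col27a1, a fibrillar chain of cartilage and early embryos, was at -1.03, -3.02 and -2.88 in Diff, against -5.12, -6.25 and -5.76 in ESC, where no array was well above background. It was at least 5.92-fold higher in Diff (adjusted p = 1.4e-05). In Mid it was at -0.32, 0.44 and -0.39, a further rise over Diff of 2.22 ± 0.53 (adjusted p = 0.0027) with no overlap, and in Late it was at 0.30, 0.16 and 0.07. XEN were at 2.10, 0.80 and 0.37, overlapping the nEnd range, and nEnd was not called different (-1.05 ± 0.46, adjusted p = 0.070). In 6 of 22 alternatives nEnd was called lower than XEN, among them scan day as a block (adjusted p = 0.043) and leaving out XEN 3 (-1.41, adjusted p = 0.037). Col27a1 was well above background on every Diff, Mid, Late and XEN array. With normexp background correction the Diff calls were lost for Col27a1 (adjusted p = 0.094) and for Col11a1 (adjusted p = 0.079).

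Col11a1 and Col5a3 were highest in Diff among the first 4 groups. Col11a1 was at -4.65, -6.44 and -6.28 in ESC, -1.78, -2.58 and -3.23 in Diff, -6.28, -4.67 and -4.78 in Mid and -6.88, -5.34 and -3.77 in Late. It was at least 4.71-fold higher in Diff than in ESC (adjusted p = 0.00065), and fell by 2.71 on the log2 scale from Diff to Mid (adjusted p = 0.0059). Col5a3, a minor chain of type V, was at -6.63, -6.27 and -4.35 in ESC, -3.15, -2.79 and -2.55 in Diff, -6.24, -6.39 and -4.58 in Mid and -6.68, -6.76 and -6.41 in Late. Its rise into Diff was 2.92 ± 0.96 (adjusted p = 0.017) and its later difference -2.90 ± 0.96 (adjusted p = 0.026). Neither Diff range overlapped its neighbours, but Col5a3 was above background on only 1 ESC array and its calls rested on few arrays. The rise was lost without ESC 1 (adjusted p = 0.076) or ESC 2 (adjusted p = 0.060), and the fall without Diff 2, Diff 3, Mid 1 or Mid 2 (adjusted p = 0.065 to 0.097).

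Col5a1, the main chain of type V, moved the other way at the start. It was at -2.95, -1.54 and -1.63 in Diff and -0.46, -0.06 and -0.87 in ESC, -1.58 ± 0.51 (adjusted p = 0.016) with no overlap. The call was lost without ESC 2 (adjusted p = 0.067) or Diff 1 (adjusted p = 0.11) and with slide as a block (-0.96, adjusted p = 0.21). In the passaged cultures Col5a1 stayed well above background, at -2.77, -2.11 and -0.55 in Mid and -0.44, -1.54 and -0.48 in Late, against -6.11, -5.26 and -7.06 in XEN, where no array was well above background. It was at least 10.8-fold higher in nEnd (adjusted p = 9e-09). All 6 nEnd arrays were above all XEN arrays.

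Col2a1 was called lower in Late than in Mid. Its levels were -2.04, -1.46 and -1.17 in ESC, -3.53, -2.13 and -2.29 in Diff, -3.0, -4.62 and -2.56 in Mid and -5.88, -6.77 and -6.46 in Late. No Late array was well above background, and Late was at least 2.29-fold lower than Mid (adjusted p = 0.0015). With the replicate number as a block the adjusted p was 0.0011, and on the first scan day alone the call was kept (adjusted p = 0.0125). The call was lost with Late and Mid fitted alone (adjusted p = 0.064), with normexp (adjusted p = 0.59) and in the authors' series matrix (adjusted p = 0.20). Col2a1 was also called between nEnd and XEN (adjusted p = 0.0016), where 2 of 6 nEnd arrays, both Mid, and 0 of 3 XEN arrays were above background, too few for a fold.

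Col1a1 varied widely between replicates of the same passage stage. It was at -1.79, -2.56 and -7.52 in Mid and -3.42, -6.61 and -6.57 in Late, and at -5.56, -7.15 and -6.79 in XEN, with Mid 3, Late 2 and Late 3 not above background. No XEN array was above background, and Col1a1 was not called in any comparison among the first 5 groups. Without Mid 3 it was called lower in Late than in Mid (-3.36, adjusted p = 0.020) and higher in nEnd than in XEN (adjusted p = 0.0040). With slide as a block it was called lower in Diff than in ESC (adjusted p = 0.0040). Col24a1 was not well above background on any array, and Col5a2 was so on 2 of 29.

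**Figure D3:**
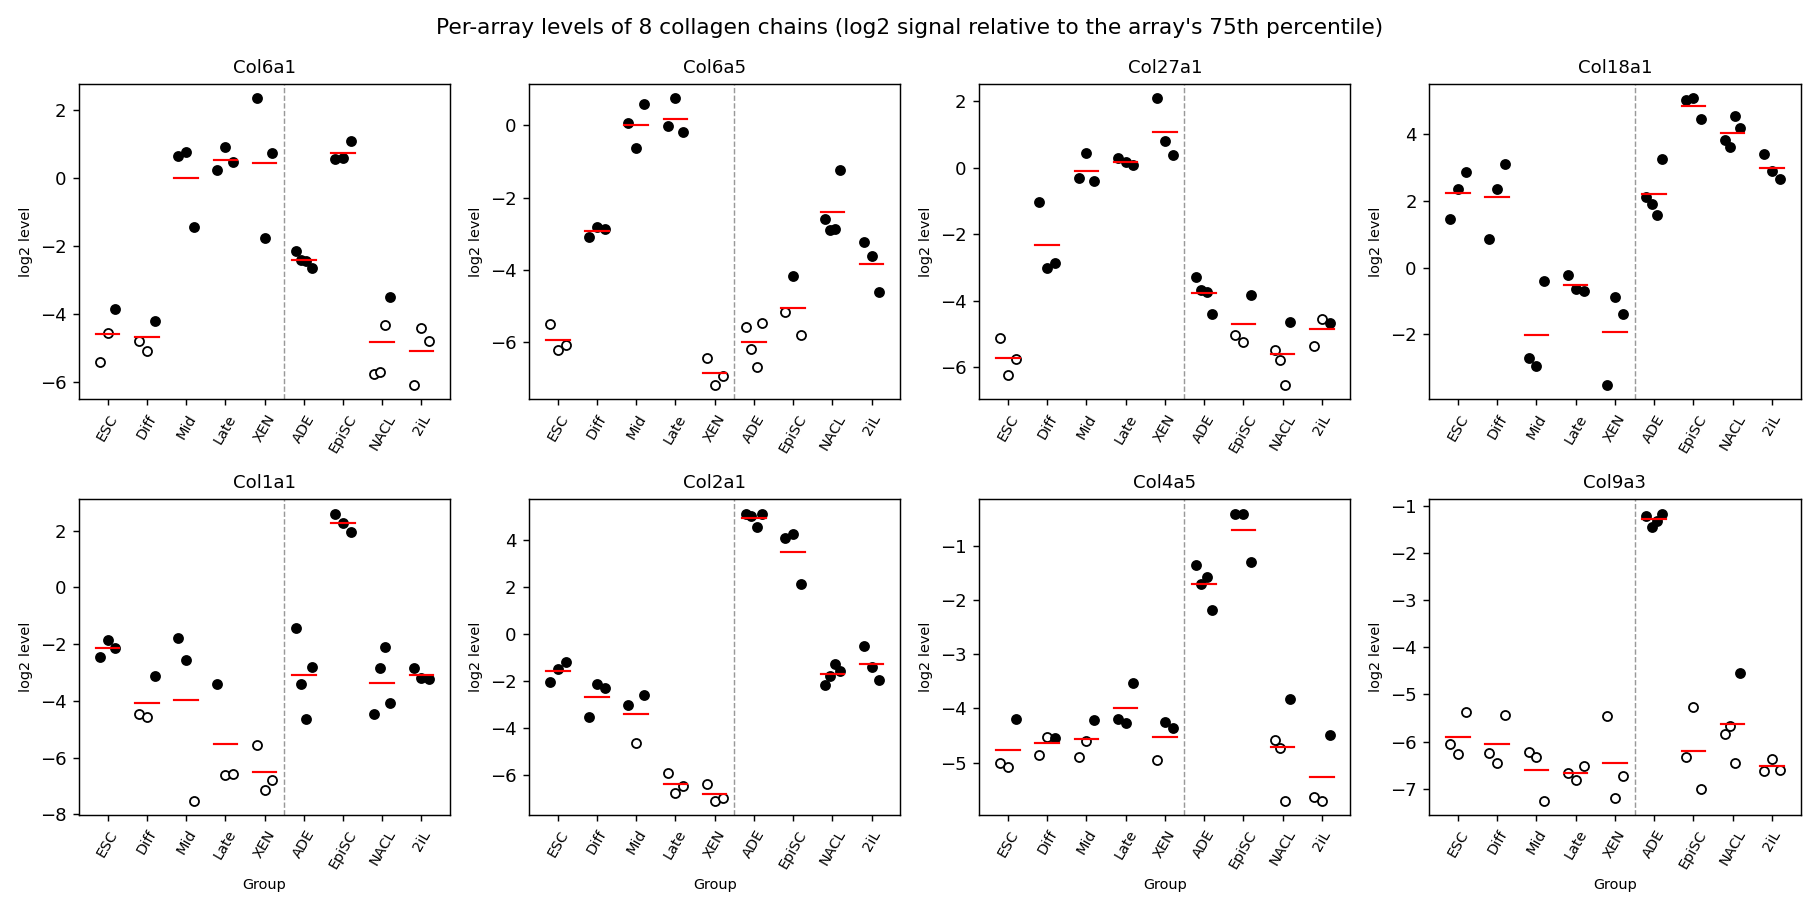
Each panel plots 1 collagen chain, with its level (log2 signal relative to the array's 75th percentile) on the y axis and the 9 groups on the x axis. Points are arrays (filled where well above background), red lines are group means, and the dashed line parts the 2 array sets. Col6a1 and Col6a5 step up at Mid, Col27a1 at Diff and again at Mid, while Col9a3 is filled on all 4 ADE arrays and on 1 other array, NACL 4.

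In type VI collagen, the beaded filament class, Col6a1 and Col6a5 rose in Mid against Diff. Col6a1, the first chain of the classical type VI trimer, was at -5.40, -4.56 and -3.84 in ESC, -4.78, -5.08 and -4.19 in Diff, 0.66, 0.78 and -1.43 in Mid and 0.24, 0.92 and 0.47 in Late. The Mid range lay wholly above Diff, 4.69 ± 0.76 higher (adjusted p = 6.6e-05), and Diff was above background on 1 of 3 arrays. On the first scan day alone the rise was 5.66, and on the second, with 1 array a group, 2.76 (adjusted p = 0.091). XEN were at 2.36, -1.77 and 0.74, which spans the nEnd range, and the difference was not called (-0.17 ± 0.65, adjusted p = 0.87). Col6a1 was also high in EpiSC, at 0.56, 0.58 and 1.09, against -6.09, -4.41 and -4.80 in 2iL, none of which was above background. There it was at least 45.1-fold higher (adjusted p = 1.3e-06). ADE, at -2.14, -2.40, -2.43 and -2.64, lay below every EpiSC array (-3.15 ± 0.71, adjusted p = 0.0011). The partner chain Col6a2, whose gene lies next to that of Col6a1, was not called in any comparison of the fit to all groups, with 0.52 ± 0.80 in Mid against Diff and 1.22 ± 0.80 in EpiSC against 2iL. In 3 alternatives (normexp, the series matrix and the compared arrays alone) Col6a2 was called higher in EpiSC than in 2iL (adjusted p = 0.0063 to 0.012) and lower in ADE than in EpiSC (adjusted p = 0.0052 to 0.027). Col6a3, the third classical chain, was above background on 5 of 29 arrays and was not tested.

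Col6a5, a longer chain related to Col6a3, was high in the passaged endoderm. It was at -5.51, -6.23 and -6.07 in ESC, -3.08, -2.82 and -2.88 in Diff, 0.06, -0.62 and 0.59 in Mid and -0.02, 0.76 and -0.18 in Late. Each of the first 3 stages lay apart from the next, with Diff at least 3.87-fold above ESC (adjusted p = 1.4e-05) and Mid 2.94 ± 0.47 above Diff (adjusted p = 5.5e-05). Late and Mid overlapped. XEN, at -6.43, -7.19 and -6.95, were not above background on any array, and nEnd was at least 29.4-fold higher (adjusted p = 3.6e-12), the largest bound of that comparison among the members. On the first scan day alone Mid was 2.67 above Diff (adjusted p = 0.0037). The calls of Diff against ESC and nEnd against XEN were kept there (adjusted p = 0.00076 and 7.3e-09). Its neighbours on either side in the genome, Col6a4 and Col6a6, were not tested, with 6 and 2 of 29 arrays above background. The other probe of Col6a5 (A_55_P2205858) did not follow, at -6.27, -6.57 and -4.7 in Mid and -6.87, -5.33 and -6.67 in Late. It was at -6.53, -5.47 and -7.23 in Diff and -6.44, -7.24 and -6.74 in XEN. The differences of Col6a5 thus rest on its brighter probe. With all Col6a5 probes averaged the calls of Diff, Mid and nEnd were kept, which does not show that the probes agree. With normexp that of Diff was lost (adjusted p = 0.17).

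Col6a5 was also the single chain called between NACL and 2iL. It was at -2.58, -2.89, -2.88 and -1.24 in NACL and at -3.24, -3.62 and -4.62 in 2iL, 1.43 ± 0.44 (adjusted p = 0.043), with every NACL array above every 2iL array. The groups share cell lines, and with the line as a block the difference was 1.44 and the call was lost (adjusted p = 0.055). It was lost too without 2iL 2 (adjusted p = 0.060), 2iL 3 (adjusted p = 0.25), NACL 1 (adjusted p = 0.061) or NACL 4 (adjusted p = 0.12), the array with the highest share of probes above background. EpiSC were at -5.17, -4.17 and -5.81, called lower than 2iL (-1.22 ± 0.47, adjusted p = 0.038), and 11 of 17 alternatives lost that call. Leaving out 2iL 1, 2iL 2, EpiSC 1 or EpiSC 3 was enough (adjusted p = 0.093 to 0.20).

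The bases before the starts of Col6a1 and Col6a5 are shown as those of the chains that rose together between Diff and Mid. Both lie on the minus strand, at chr10:76726045-76726294 and chr9:105960644-105960893 in GRCm38.p6, from RefSeq, and capitals mark the same motifs.
Col6a1: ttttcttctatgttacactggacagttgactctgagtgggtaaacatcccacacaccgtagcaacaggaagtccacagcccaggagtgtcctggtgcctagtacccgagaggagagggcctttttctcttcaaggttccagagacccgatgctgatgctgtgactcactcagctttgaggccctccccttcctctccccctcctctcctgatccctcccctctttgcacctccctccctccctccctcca
Col6a5: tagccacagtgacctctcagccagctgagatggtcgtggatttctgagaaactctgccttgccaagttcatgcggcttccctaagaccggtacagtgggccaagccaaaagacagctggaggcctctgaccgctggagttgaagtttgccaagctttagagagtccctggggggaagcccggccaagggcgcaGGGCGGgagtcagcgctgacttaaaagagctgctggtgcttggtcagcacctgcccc
Col6a5 holds the GC box once, and the Col6a1 window holds none of the 4 motifs, which says only that these letters are not in it.

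Of the 4 tested network chains, Col4a5 alone was called in EpiSC against 2iL, where 41.6% of all genes were called. Col4a5 pairs with Col4a3 and Col4a4, or with Col4a6, in basement membranes of particular tissues. It was at -0.41, -0.41 and -1.31 in EpiSC and at -5.63, -5.70 and -4.48 in 2iL, 4.56 ± 0.40 higher (adjusted p = 3.4e-09) without overlap, with 1 of 3 2iL arrays above background. ADE were at -1.35, -1.70, -1.58 and -2.18, and the difference of -0.99 ± 0.37 from EpiSC (adjusted p = 0.038) was called but lost with the replicate block (adjusted p = 0.12) and without EpiSC 1 or 2, or ADE 2, 3 or 4 (adjusted p = 0.053 to 0.14). Among the first 5 groups Col4a5 lay between -5.07 and -3.53 on all arrays, and was not called. It was well above background there on 1 array each of ESC, Diff and Mid, on 2 XEN arrays and on all Late arrays.

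Col4a5 and Col4a6 are neighbours on chromosome X in opposite directions, and their starts lie close together. The window before Col4a5 is shown for that reason (chrX:141475169-141475418, plus strand, GRCm38.p6, RefSeq).
Col4a5: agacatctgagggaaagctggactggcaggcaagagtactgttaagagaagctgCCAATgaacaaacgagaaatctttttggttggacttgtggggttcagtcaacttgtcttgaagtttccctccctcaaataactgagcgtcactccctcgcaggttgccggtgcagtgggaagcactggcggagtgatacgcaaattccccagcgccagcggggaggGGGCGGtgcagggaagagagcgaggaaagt
It holds the CCAAT box once and the GC box once. The 2 probes of Col4a6 did not agree. The probe that stands for the gene, as the brighter one, was nearly level, with group means within 0.575 of each other and a difference of -0.01 between EpiSC and 2iL. The other probe (A_52_P516409) was at -0.87, -0.81 and -2.20 in EpiSC and -6.51, -5.28 and -7.10 in 2iL, where it was not above background on any array, at least 12.8-fold higher (adjusted p = 1.4e-06). In ADE it was at -3.35, -2.66, -3.91 and -4.03, -2.19 ± 0.61 relative to EpiSC (adjusted p = 0.0062). That probe thus moved in the same direction as Col4a5 in both comparisons, while the brighter one was not called in either.

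Col8a2, a network chain known from the basement membrane of the corneal endothelium, had probes that disagreed as well. Its brighter probe was at -4.50, -4.13 and -3.27 in ESC, -3.37, -3.24 and -4.65 in Diff, -2.07, -1.46 and 0.16 in Mid and -1.11, 0.06 and 0.41 in Late, a rise from Diff to Mid of 2.63 ± 0.71 (adjusted p = 0.0076). Mid 3, read on the second scan day, was the highest of the Mid arrays, and the rise was lost without it (1.99, adjusted p = 0.053) or without Diff 3 (adjusted p = 0.053). On the first scan day alone the difference was 1.54 and not called (adjusted p = 0.18), and on the second, with 1 array a group, it was 4.81 (adjusted p = 0.029). The nEnd arrays were also above XEN, at -3.79, -3.05 and -4.82, by 3.22 ± 0.62 (adjusted p = 0.0002). Its other probe (A_52_P302544) was higher in Diff than in ESC already, at -3.42, -2.82 and -2.24 against -5.23, -6.37 and -5.94, at least 4.15-fold (adjusted p = 6e-05). It was not called in Mid against Diff (-0.63 ± 0.53, adjusted p = 0.41), and was at least 2.15-fold higher in nEnd than in XEN (adjusted p = 5.4e-06). In the other array set it was at 0.27, 1.24, 1.18 and 1.04 in ADE, -1.37, -1.47 and -1.83 in EpiSC, -3.96, -3.99, -4.10 and -3.87 in NACL and -6.80, -5.49 and -6.75 in 2iL. It was at least 10.7-fold higher in EpiSC and at least 2-fold higher in NACL than in 2iL (adjusted p = 1.3e-07 and 0.0034), and 2.49 ± 0.49 higher in ADE than in EpiSC (adjusted p = 0.00031). The brighter probe was called in none of these 3. Of the 41 members, 14 had several probes.

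**Figure D4:**
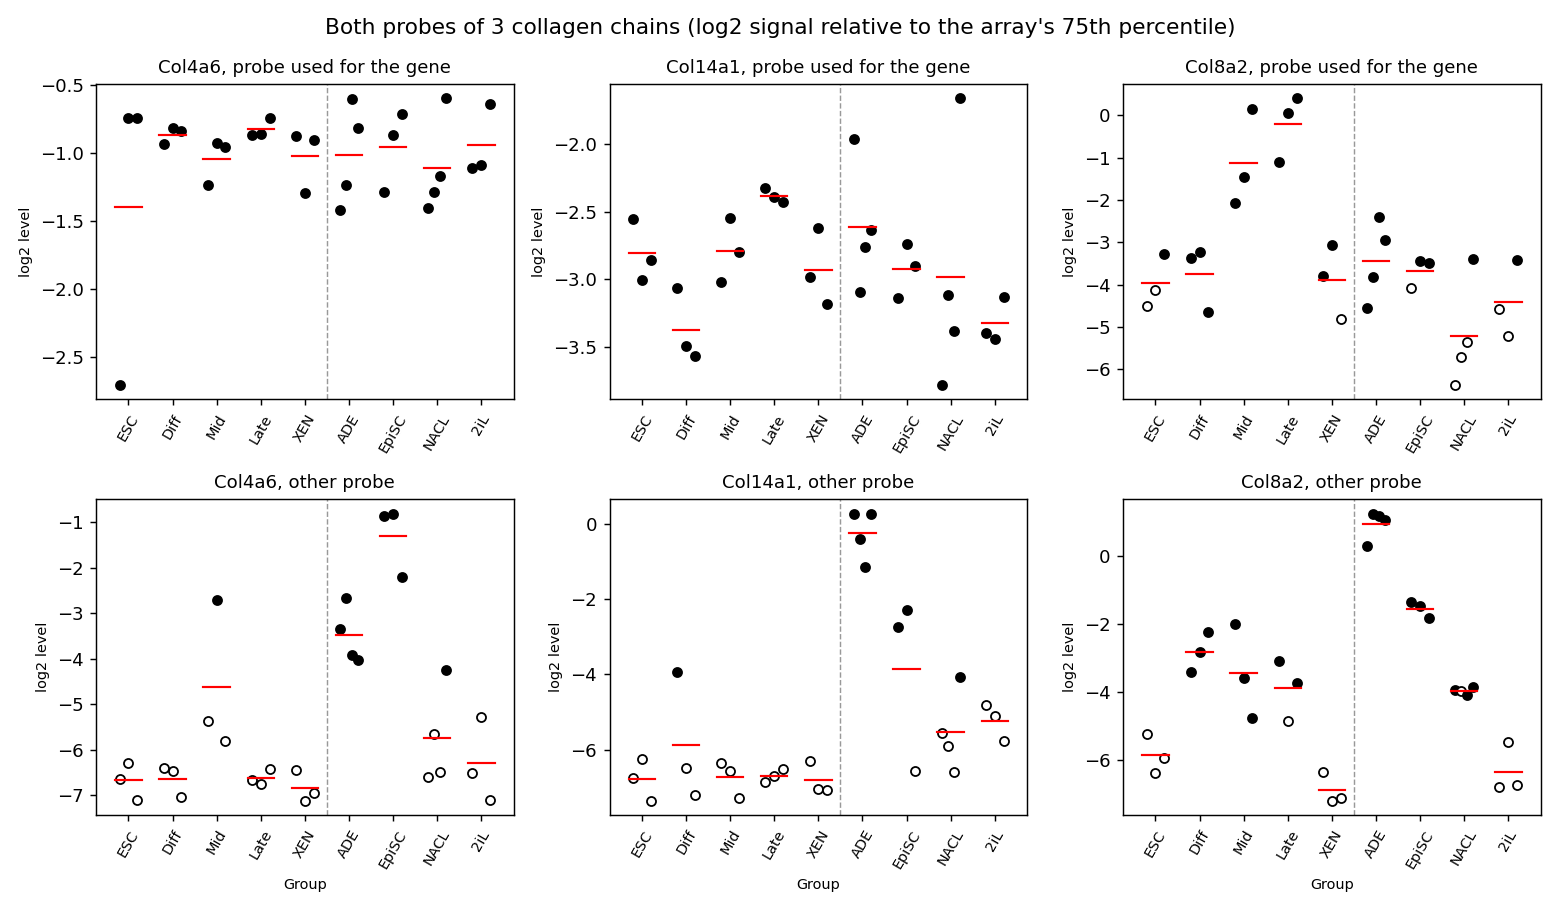
The top row plots the probe that stands for Col4a6, Col14a1 and Col8a2, and the bottom row another probe of the same gene, with level (log2) on the y axis and group on the x axis. Points are arrays (filled where well above background) and red lines are group means. The bottom probes of Col4a6 and Col14a1 are high in EpiSC or ADE, while the group means of the top probes stay within 0.575 and 0.991 of each other.

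Of the 7 tested fibril-associated chains, 2 were higher in ADE than in EpiSC and 0 lower, a share below the 37.6% of all genes called there. Col9a3, a chain of cartilage type IX collagen, was at -1.22, -1.45, -1.32 and -1.17 in ADE, against -6.32, -5.27 and -7.01 in EpiSC, where no array was above background. It was at least 12.3-fold higher in ADE (adjusted p = 7.8e-09), and among the 25 arrays outside ADE only NACL 4 was above background. Col9a3 thus passed the filter for testing only through ADE, where it was high, and its p-value is not independent of that choice. A stricter filter on dim probes left it untested. Its partner Col9a2 was not called in ADE against EpiSC (0.15 ± 0.35, adjusted p = 0.79). Col9a2 was at -1.77, -1.73 and -1.78 in EpiSC and 0.34, 1.95 and 1.37 in 2iL, -2.98 ± 0.37 (adjusted p = 8.6e-07), and also fell between Diff and Mid, by 1.46 on the log2 scale (adjusted p = 0.0050). The third chain, Col9a1, was not called in any comparison.

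Col20a1, a fibril-associated chain known mainly from chick tissues, was at -1.06, -0.69 and -0.73 in ESC, -0.83, -0.97 and -1.36 in Diff, 1.84, 2.25 and 0.16 in Mid and 1.32, 2.87 and 1.43 in Late. Mid lay above Diff on every array, by 2.46 ± 0.55 (adjusted p = 0.0016), with Mid 3 the lowest. XEN were at -3.01, -2.42 and -1.52, and nEnd was 3.96 ± 0.47 higher (adjusted p = 4.9e-07) without overlap. ADE, at 0.51, -0.24, -0.34 and 0.02, were above EpiSC, at -2.35, -2.21 and -3.42, by 2.65 ± 0.51 (adjusted p = 0.00024). Col16a1, which joins fibrils and microfibrils, was at 0.30, -0.19 and 0.44 in Diff and -2.14, -2.34 and -1.39 in ESC, 2.14 ± 0.49 higher (adjusted p = 0.0010). In EpiSC it was at 0.99, 0.94 and 1.25, against -0.26, -1.42 and -0.89 in 2iL (1.91 ± 0.49, adjusted p = 0.0029), with no overlap in either comparison.

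Col22a1, a chain of tissue junctions, was at -1.04, -1.08 and -1.0 in EpiSC and -3.67, -3.51 and -4.42 in 2iL, 2.83 ± 0.69 higher (adjusted p = 0.0019). In nEnd it was at least 1.08-fold higher than in XEN (adjusted p = 0.021), with levels of -6.16, -6.03 and -3.92 in Mid and -3.88, -4.43 and -3.58 in Late against -6.33, -6.29 and -6.66 in XEN. That bound is close to 1, and the call was lost without Mid 3 (adjusted p = 0.054), XEN 1 (adjusted p = 0.051) or XEN 3 (adjusted p = 0.073). Col14a1 was level by its brighter probe and not called, while its other probe (A_55_P2124736) was at 0.25, -0.41, -1.15 and 0.26 in ADE and -2.75, -2.29 and -6.58 in EpiSC, 3.61 ± 0.78 higher in ADE (adjusted p = 0.00077). EpiSC 3 was the low array there. That probe passed the filter for testing only through ADE, where it was high, and its p-value is not independent of that choice.

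Col7a1, the anchoring fibril chain, was well above background on all 29 arrays. It was at 3.92, 4.06, 4.20 and 4.03 in ADE and 2.14, 2.15 and 3.06 in EpiSC, 1.60 ± 0.29 higher in ADE (adjusted p = 0.0001), and EpiSC in turn were 2.95 ± 0.31 above 2iL, at -0.61, -0.37 and -0.53 (adjusted p = 5.5e-08). The 3 groups did not overlap. Within the first array set it was at -0.57, -0.15 and 0.39 in ESC, -1.36, -0.47 and -1.10 in Diff, -0.48, -0.83 and -0.31 in Mid, -0.51, 0.05 and -0.57 in Late and -0.83, -0.98 and -1.64 in XEN. Diff was called lower than ESC (-0.86 ± 0.31, adjusted p = 0.026) and nEnd higher than XEN (0.71 ± 0.27, adjusted p = 0.037), but the values of both pairs overlapped. The first call was lost without ESC 2 or 3 or Diff 1 or 3 (adjusted p = 0.052 to 0.16), and the other without Mid 1 or 3, Late 2 or XEN 3 (adjusted p = 0.056 to 0.25) and with Mid and Late of 1 number averaged (adjusted p = 0.075).

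Col18a1, the multiplexin from which endostatin is cut, fell on passaging. It was at 1.46, 2.35 and 2.88 in ESC, 0.87, 2.36 and 3.11 in Diff, -2.71, -2.95 and -0.39 in Mid and -0.23, -0.63 and -0.71 in Late. Mid lay below Diff on every array (-4.12 ± 0.66, adjusted p = 5.8e-05), and Mid 3 was the highest of the Mid arrays. XEN were at -3.53, -0.88 and -1.39, overlapping the nEnd range. ADE, at 2.11, 1.91, 1.58 and 3.27, were lower than EpiSC, at 5.04, 5.09 and 4.45 (-2.64 ± 0.61, adjusted p = 0.0014), and EpiSC were higher than 2iL, at 3.40, 2.90 and 2.65, by 1.88 ± 0.66 (adjusted p = 0.025). That last call was lost without 2iL 2, 2iL 3, EpiSC 1 or EpiSC 2 (adjusted p = 0.060 to 0.075) and on slide 5 and slide 6 alone, where the differences were 1.89 and 2.11 (adjusted p = 0.22 and 0.24). The call in ADE against EpiSC was lost on either slide alone as well, with differences of -3.03 and -2.35 (adjusted p = 0.057 and 0.089). The other multiplexin, Col15a1, was not called in any comparison.

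Of the 4 tested transmembrane chains, Col17a1 and Col23a1 were higher in ADE than in EpiSC, where 37.6% of all genes were called. Col17a1, the collagen of hemidesmosomes, was at -1.38, -1.83, -1.53 and -1.79 in ADE, against -5.07, -7.32 and -6.98 in EpiSC, none of which was above background, at least 10.1-fold higher (adjusted p = 3.7e-07). Col23a1 was at 0.66, 1.62, 1.34 and 1.01 in ADE and -2.54, -2.39 and -2.06 in EpiSC, 3.49 ± 0.24 higher (adjusted p = 2.2e-10). Both separated the groups fully, and on slide 5 and slide 6 alone Col23a1 differed by 3.68 and 3.40. Against 2iL, EpiSC were at least 1.66-fold lower in Col17a1 (adjusted p = 0.0040) and 0.76 ± 0.25 higher in Col23a1 (adjusted p = 0.019). On slide 5 alone, which held 1 EpiSC array, the Col17a1 call was lost. The Col23a1 call was lost without 2iL 1, 2iL 2 or EpiSC 3 (adjusted p = 0.053 to 0.11). Col13a1 and Col25a1, the remaining 2 tested chains of the class, were not called in any comparison.

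Col26a1, a chain first described in mouse testis and ovary, fell below background in the passaged cultures. It was at 0.96, 0.66 and -0.59 in ESC, -2.45, -1.67 and -0.78 in Diff, -6.10, -6.34 and -6.59 in Mid and -6.14, -6.5 and -6.13 in Late, and no Mid or Late array was above background. Mid was at least 8.53-fold lower than Diff (adjusted p = 0.0011), a call lost with normexp (adjusted p = 0.16). Diff was not called different from ESC (-1.98 ± 1.00, adjusted p = 0.12), though with Diff and ESC fitted alone it was (adjusted p = 0.028). Col28a1 was not well above background on any array.

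The untested members were dim throughout. Besides Col24a1 and Col28a1, Col4a3 and Col19a1 were above background on 1 array each, Col10a1 on 2, Col8a1 on 3 and Col6a4 on 6. Col6a3 and Col8a1 were above background on 2 of 3 EpiSC arrays each. With no filter on dim probes, Col6a3 was called higher in Diff than in ESC (adjusted p = 0.019), and Col6a3 and Col8a1 were called higher in EpiSC than in 2iL (adjusted p = 0.014 and 0.0012). In the fit to all groups, the tested members called in none of the 7 comparisons were Col4a4, Col4a6, Col6a2, Col9a1, Col13a1, Col14a1, Col15a1 and Col25a1. Several of them were nearly level over all groups by their brightest probe. The group means of Col9a1 lay within 0.63 of each other, those of Col4a4 within 1.08 and those of Col25a1 within 1.09. Another probe of Col4a4 (A_55_P2143837) was called lower in nEnd than in XEN (-1.30 ± 0.43, adjusted p = 0.017). It was at -4.08, -4.23 and -4.04 in Mid, -3.72, -3.79 and -4.43 in Late and -3.08, -2.02 and -3.14 in XEN. Among 22 alternatives, the series matrix alone called Col4a4 in that comparison, lower in nEnd (-0.38, adjusted p = 0.0015). Col13a1 was called higher in Diff than in ESC without ESC 1 (2.64, adjusted p = 0.031).

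The scan days held both groups in 2 of the early comparisons. In Diff against ESC, 6 of the 7 called chains were also called on the first scan day alone and 2 on the second, where each group had 1 array that was assumed to vary like the other groups. In Mid against Diff, 8 and 3 of the 10 were called. Slide 5 alone kept 4 of the 12 calls in ADE against EpiSC and slide 6 alone kept 9, and in EpiSC against 2iL they kept 10 and 11 of the 16. Slide 5 held 1 EpiSC array and slide 6 held 1 2iL array, so 3 of these 4 fits had a group of 1 array that was assumed to vary like the others. No called chain changed direction in any of these.

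The change from EpiSC to ADE was set against the change from ESC to Diff, as endoderm formed from different starting cells in different array sets. The difference between the changes was called for 13 of the 31 chains, 6 higher and 7 lower for Diff minus ESC, where 36.8% of all genes were called, 21.9% higher and 14.9% lower. Diff minus ESC exceeded ADE minus EpiSC in Col5a3, Col6a5, Col6a1, Col18a1, Col27a1 and Col16a1. It fell short of it in Col9a3, Col17a1, Col23a1, Col20a1, Col2a1, Col7a1 and Col11a2. Col9a3 passed the filter for testing only through ADE, and a stricter filter left its gap untested. Col23a1 differed by -3.32 ± 0.35 (adjusted p = 1.3e-07), with changes of 0.17 ± 0.25 in Diff against ESC and of 3.49 ± 0.24 in ADE against EpiSC. Col16a1 rose by 2.14 ± 0.49 into Diff and differed by 0.04 ± 0.46 in ADE, a gap of 2.10 ± 0.67 (adjusted p = 0.017). Col6a1 and Col18a1 differed little between Diff and ESC (-0.08 ± 0.76 and -0.12 ± 0.66), and their gaps were lost without single arrays. For Col6a1 these were ESC 1, Diff 3 and EpiSC 3 (adjusted p = 0.051 to 0.068), and for Col18a1 ESC 1, Diff 2, Diff 3, EpiSC 1, EpiSC 2, ADE 2 and ADE 3 (adjusted p = 0.051 to 0.098). The gap of Col11a2 was lost without ESC 1, ESC 3, Diff 1, Diff 2, EpiSC 3, ADE 1, ADE 2 or ADE 3 (adjusted p = 0.051 to 0.12). With normexp the gaps of Col5a3, Col6a5 and Col27a1 shrank to 0.26, 0.30 and 0.32 and were not called (adjusted p = 0.50 to 0.55). That of Col5a3 was also lost in the series matrix (0.97, adjusted p = 0.065), that of Col6a5 with all probes averaged (1.44, adjusted p = 0.12) and that of Col16a1 with slide as a block (adjusted p = 0.057). The gap of Col6a1 was lost with slide as a block (2.17, adjusted p = 0.14), and that of Col11a2 with median centring and with quantile normalization (adjusted p = 0.065 and 0.065). Both were lost with the replicate block, and that of Col11a2 also with no filter on dim probes. Col5a3 was at -5.92, -0.86, -6.80 and -5.45 in ADE, with ADE 2 apart, and at -3.22, -2.93 and -3.13 in EpiSC. It was not called there (-1.67 ± 0.90, adjusted p = 0.16), but without ADE 2 it was called lower in ADE (-2.97, adjusted p = 0.0004). Col11a1 was called higher in both, and its gap of 0.81 ± 0.97 was not called (adjusted p = 0.55). In 2 of 24 alternatives its gap was called with the other sign, with normexp (-1.06, adjusted p = 0.0067) and in the series matrix (-0.89, adjusted p = 0.021). The gaps of Col1a1 and Col3a1 were not called (adjusted p = 0.068 and 0.086). In 6 and 5 of 24 alternatives they were called, with Diff minus ESC above ADE minus EpiSC.

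**Figure D5:**
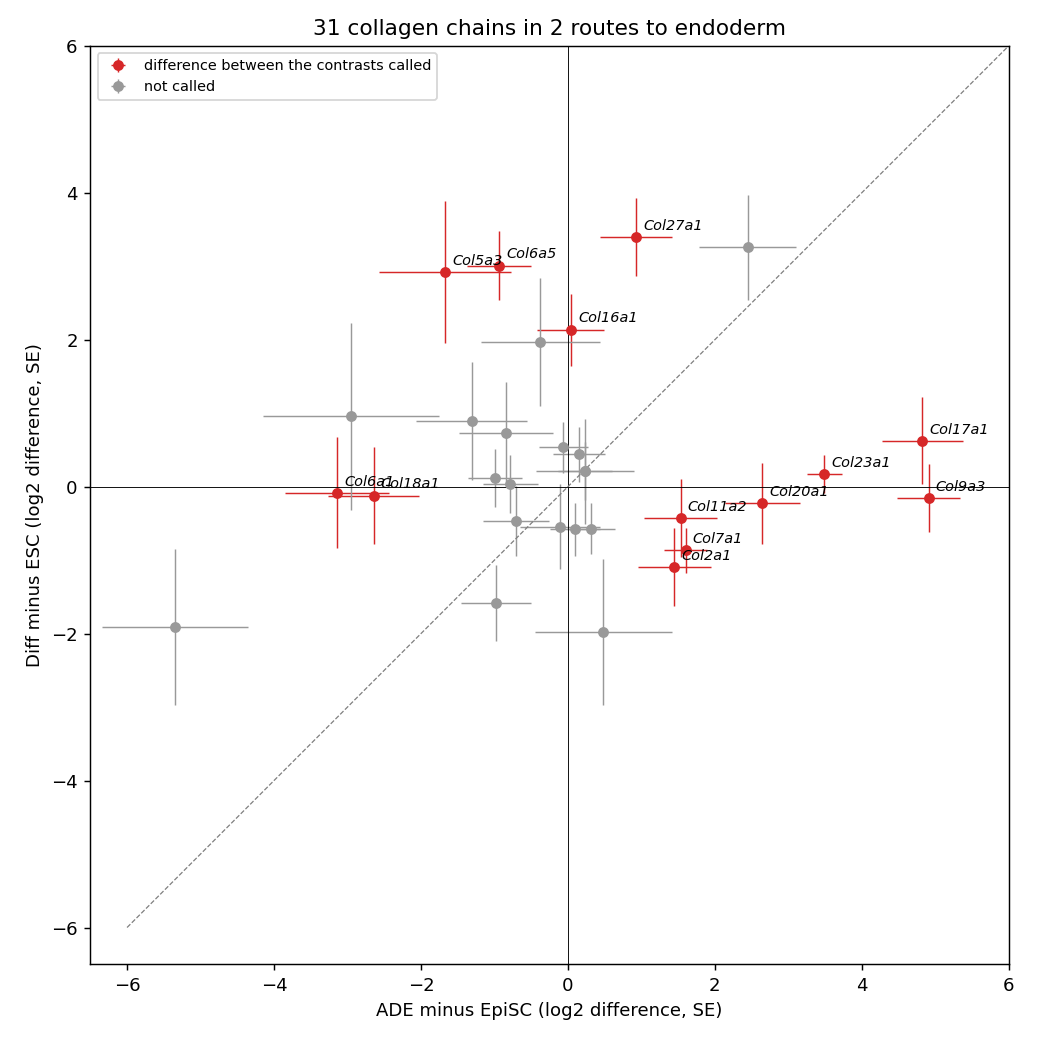
Each point is 1 of the 31 tested chains, with its difference between ADE and EpiSC on the x axis and between Diff and ESC on the y axis (log2, bars are SE). Red points are the 13 chains whose differences differed from each other, and the dashed line marks equal differences. Col27a1, Col5a3, Col6a5 and Col16a1 lie above 2 on the y axis and below 1 on the x axis, and Col9a3, Col17a1 and Col23a1 lie beyond 3 on the x axis and below 1 on the y axis.

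Of 15 tested genes of procollagen processing and fibril partners, 6 rose and 3 fell in Diff against ESC, where 42.4% of all genes were called. Their counts in the next 3 comparisons were near or below the shares of all genes called (29.1% in Mid against Diff, 41.1% in nEnd against XEN and 37.6% in ADE against EpiSC). Serpinh1, the collagen chaperone of the endoplasmic reticulum, rose by 6.25 ± 0.43 (adjusted p = 9e-11) and Bmp1, the protease that trims the end of fibrillar procollagens, by 4.44 ± 0.38 (adjusted p = 2.5e-09). Thbs1, thrombospondin, was at least 5.74-fold higher (adjusted p = 7.3e-05). In Mid against Diff, 2 rose and 3 fell, and Thbs1 (4.35 ± 0.78), Pcolce2, a procollagen protease enhancer (-4.43 ± 0.87), and Comp (-2.10 ± 0.35) had the largest differences. In nEnd against XEN, 2 of the 15 were higher and 3 lower, among them Dcn, the fibril-binding proteoglycan decorin (at least 5.6-fold lower), Pcolce2 (-2.55 ± 0.75) and Adamts14 (2.16 ± 0.29), another procollagen protease. In ADE against EpiSC, 2 were higher and 2 lower, led by Adamts2, the protease of the amino end (4.61 ± 0.71, adjusted p = 1.9e-05). In EpiSC against 2iL, 5 were higher and 3 lower, where 41.6% of all genes were called, led by Thbs1 (at least 221-fold higher), Dcn (at least 16.7-fold higher) and Bmp1 (4.53 ± 0.38). Dcn also stands in the list of fibroblast and mesenchyme markers.

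Of 8 tested collagen-degrading enzymes and their inhibitors, 4 rose and 1 fell in Diff against ESC (42.4% of all genes called), with the inhibitors Timp3 (8.06 ± 0.76, adjusted p = 1.4e-08) and Timp2 (3.83 ± 0.59, adjusted p = 1.3e-05) and the membrane protease Mmp15 (4.21 ± 0.60, adjusted p = 5.4e-06) highest. In Mid against Diff, 2 rose and 2 fell (29.1% of all genes called), the gelatinase Mmp2 being at least 3.19-fold lower (adjusted p = 0.00023), and Timp2 was lower in Late than in Mid (-2.75 ± 0.59, adjusted p = 0.0064). Of 6 tested collagen receptors, 3 were higher and 1 lower in nEnd than in XEN (41.1% of all genes called), with Ddr2, a receptor kinase for fibrillar collagen, at least 5.18-fold higher (adjusted p = 3.4e-05). Ddr2 was lower in ADE than in EpiSC (-2.92 ± 0.69, adjusted p = 0.0017), in Mid than in Diff (-2.36 ± 0.74, adjusted p = 0.019) and in NACL than in 2iL (-2.68 ± 0.69, adjusted p = 0.016). Ddr1, the receptor kinase that also binds basement membrane collagen, was higher in Mid than in Diff (2.98 ± 0.30, adjusted p = 1.8e-07) and in EpiSC than in 2iL (3.00 ± 0.30, adjusted p = 2.6e-08).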

How the data were processed

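RNA of 29 samples in 9 groups was measured on one-colour Agilent mouse arrays. Each scanner file holds, per the file headers, the spot intensity that Agilent Feature Extraction 11.0.1.1 or 12.0.1.1 had corrected for background but not normalized between arrays, with median spot and background intensity and other 0 or 1 marks for spots well above background, irregular or saturated. Version 9.1 is named in the submitters' processing notes. The deposited series matrix holds log2 values of 31982 probes with nearly equal column medians (5.940 to 5.949), which correlated at 0.909 to 0.937 with the log2 intensity of the same arrays. How the authors scaled it is not given in the sources used here, and it served as an alternative with 21 members.

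Levels were log2 processed signals minus the array's 75th percentile. Control and irregular spots were left out, and 0 spots were marked saturated. The brightest probe stood for a gene, and 5552 genes had several. One limma model (R 4.3.3, limma 3.58.1) of 9 group means was fitted to 16333 genes, those with at least 1 group in which each array was well above background, with Benjamini-Hochberg adjustment over all of them and a threshold of 0.05. Adjusted p-values are from limma unless another fit is named. Bounds compare the brighter group's mean with the dimmer group's mean of the higher of the lowest signal well above background and the probe's own. The fit was tested on simulated data. Depth is not defined for arrays, and the number of arrays limits the precision.

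Replicate numbers pair samples of Late and Mid, whose same-numbered arrays deviated together weakly (correlations 0.218, 0.129 and 0.141), and NACL and 2iL share cell lines. Late and Mid arrays of numbers 1 and 2 also shared a slide, so pairs and slides cannot be told apart there. Alternatives were normexp background correction (on median rather than mean signals, which were the ones at hand), median centring, quantile normalization, other probe and filter rules, the series matrix, fits of the compared arrays alone, slide, scan day and replicate blocks, single batches and leaving out each array. Values on every array are given for up to 6 called members per comparison with the largest differences and for the highest member of a class. Single-batch fits, and averaging Mid and Late arrays of one number, were chosen after seeing the data. The members and gene lists were chosen with earlier results of these data known.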

Additional observations from a re-analysis of the deposited data

Results flagged for a closer look

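The 13 chains whose change in Diff against ESC differed from their change in ADE against EpiSC were picked out by the limma test of that difference, adjusted over all 16333 genes, of which 36.8% were called. The value is the first change minus the other on the log2 scale. It was positive for Col5a3 (4.59), Col6a5 (3.95), Col6a1 (3.06), Col18a1 (2.52), Col27a1 (2.48) and Col16a1 (2.10). It was negative for Col9a3 (-5.06), Col17a1 (-4.20), Col23a1 (-3.32), Col20a1 (-2.87), Col2a1 (-2.54), Col7a1 (-2.47) and Col11a2 (-1.96). The adjusted p-values ran from 1.3e-07 for Col23a1 to 0.039 for Col11a2. Where a chain was not above background in one of the groups, as Col9a3 and Col17a1 were not in EpiSC and Col6a5 and Col27a1 were not in ESC, the value depends on dim signals and is no measured size. Col9a3 passed the filter for testing only through ADE, where it was high. The 2 changes come from different array sets, and their part in the differences was not tested. With normexp background correction the values of Col5a3, Col6a5 and Col27a1 were 0.26, 0.30 and 0.32, with adjusted p-values of 0.52, 0.50 and 0.55. In the series matrix that of Col5a3 was 0.97 (adjusted p = 0.065). For Col5a3 the ADE arrays were at -5.92, -0.86, -6.80 and -5.45, so that ADE 2 lay apart. Without ADE 2, ADE against EpiSC moved to -2.97 (adjusted p = 0.00040 by limma), against -1.67 and no call with all arrays. In the 62 sets of 4 values (ADE or NACL, for each tested chain), 0 arrays had a gap to the nearest array, as a share of the whole range, above Dixon's critical value. This does not say that the arrays were alike: ADE 2 for Col5a3 and ADE 1 for Col3a1 lay apart from the other ADE arrays and stayed below that value.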

How the results depend on the processing

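Of 67 called differences of single chains, 24 stayed called under all alternatives that tested the chain. The other 43 lost the call under at least 1, and 0 changed direction. Alternatives that left a chain out were not counted, such as the series matrix for Col6a5, Col8a2, Col18a1 and Col23a1. The stricter filter for Col9a3 was another. The calls numbered 7 in Diff minus ESC, 10 in Mid minus Diff, 1 in Late minus Mid, 7 in nEnd minus XEN, 12 in ADE minus EpiSC, 1 in NACL minus 2iL, 16 in EpiSC minus 2iL and 13 in the difference between the changes. With normexp there were 3 in Diff minus ESC, and on the second scan day alone 2. Mid minus Diff gave 5 in the series matrix, which holds fewer of the chains, and 4 on the second scan day alone. Slide 5 alone gave 5 in ADE minus EpiSC and 10 in EpiSC minus 2iL. Late minus Mid gave 0 with normexp, in the series matrix and with the compared arrays alone, 3 with slide and 2 with scan day as a block, and 4 on the first scan day alone. NACL minus 2iL gave 0 with normexp, median centring, no filter, the mean of all probes, the series matrix, the compared arrays alone, the cell line as replicate block, slide as a block and slide 5 alone, and 2 on slide 6 alone, where NACL and 2iL had 1 array each. In these fits with 0 calls by limma, 0 to 4 chains had an unadjusted p under 0.05. Leaving out 1 array gave 4 to 7 calls in Diff minus ESC (4 without ESC 2), 8 to 11 in Mid minus Diff, 1 to 3 in Late minus Mid (3 without Mid 3), 6 to 8 in nEnd minus XEN, 11 to 12 in ADE minus EpiSC, 0 to 1 in NACL minus 2iL (0 without 2iL 2, 2iL 3, NACL 1 or NACL 4), 13 to 15 in EpiSC minus 2iL and 11 to 14 in the difference between the changes. Outside Late and Mid the data do not settle whether replicate numbers are pairs, as same-numbered arrays can share a slide. ADE and EpiSC correlated at 0.306 and 0.315 for numbers 1 and 3, which shared a slide. For number 2, which did not, the correlation was -0.124. The replicate block kept 7 of 7 calls in Diff minus ESC, 10 of 10 in Mid minus Diff, 7 of 7 in nEnd minus XEN, 11 of 12 in ADE minus EpiSC, 16 of 16 in EpiSC minus 2iL and 11 of 13 in the difference between the changes, and in Late minus Mid it kept the call. Median centring moved the median of all genes, to 0.32 in Diff minus ESC and to -0.38 in nEnd minus XEN, against -0.04 and -0.03. The causes of these changes were not tested. Signal near background limits the dim chains, whose differences rest on few arrays.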
